A study of Mus musculus with 6 samples.

Results

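TRP channels and other mechanosensitive cation channels were examined in the caudal artery, the main artery of the tail, of mice with and without Notch3, a receptor of the Notch family that arterial smooth muscle carries. The genes were 9 in number, chosen by name: Trpc1, Trpc4, Trpc6, Trpm4, Trpm7, Trpv2, Trpv4, Pkd2 and Piezo1. Their probe sets were those whose only gene symbol in the platform annotation was one of these names. Of the 9 genes, 8 were represented, by 14 of the 45037 probe sets on the chip, and 7 genes with 10 probe sets lay above the level filter and were tested. Pkd2 had no such probe set and was not analysed here. In all, 12732 of 18193 genes were tested.

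The Notch3+/+ group held 3 pools of arteries from 4, 3 and 3 mice, and the Notch3-/- group held 3 pools of 4 mice each, all aged 4 weeks (postnatal day 28). The labels call the pools biological replicates and do not give the strain, the sex or the structure of the Notch3 allele. Each pool was hybridised to 1 Affymetrix array, and the values are log2 expression levels after RMA (background correction, quantile normalization and summary of the probes). They carry no detection call, and a level cannot be compared between probe sets, so a gene, or a list of markers, is compared only with itself across pools.

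In a small artery, stretch of the wall by pressure opens cation channels in smooth muscle cells. The inward current depolarises the membrane, voltage-gated calcium channels open, and the artery constricts, which is called the myogenic response. TRP channels are tetramers that pass sodium, calcium or both, and many are opened by receptors, lipids or calcium. Piezo1 is itself gated by force on the membrane. The comparison asks whether transcripts of these channels differ in arteries that lack Notch3.

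The targeted transcript was lower in every pool labelled Notch3-/-. The brighter Notch3 probe set read 9.94, 9.95 and 10.09 in Notch3+/+ and 6.51, 6.44 and 5.87 in Notch3-/- pools (limma adjusted p = 0.000529). The smooth muscle genes Acta2, Myh11 and Tagln read 11.80 or more in every pool, and the endothelial genes Pecam1, Cdh5 and Kdr read 6.48 or more, all above the filter level of 3.825. Notch3-/- replicate 2 stood apart on the first principal component, at 39.5 against -17.1 to 5.85 for the other arrays. Results on the channel genes that rest on it are given with and without it.

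None of the 7 tested channel genes passed the test, and the shifts were small. By the probe set with the highest mean for each gene, 0 of 7 had an adjusted p under 0.05 in limma, where 0.322% of all 12732 genes did. Over their 10 tested probe sets 0 passed, against 0.252% of all probe sets. An unadjusted p under 0.05 was found for 1 of 7 (Trpm4), against 11.9% of all genes. Differences, given as Notch3-/- minus Notch3+/+ in log2 units, ran from -0.33 for Trpm4 to 0.19 for Trpm7, with 4 positive and 3 negative and a median of 0.03. The median over all genes tested was 0.00. The median size of a difference, sign ignored, was 0.08 for the channel genes and 0.10 for all genes. With 3 pools a group, precision is set by the number of arrays, and the median SD within a genotype was 0.12 both for the channel genes and for all genes.

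**Figure D1:**
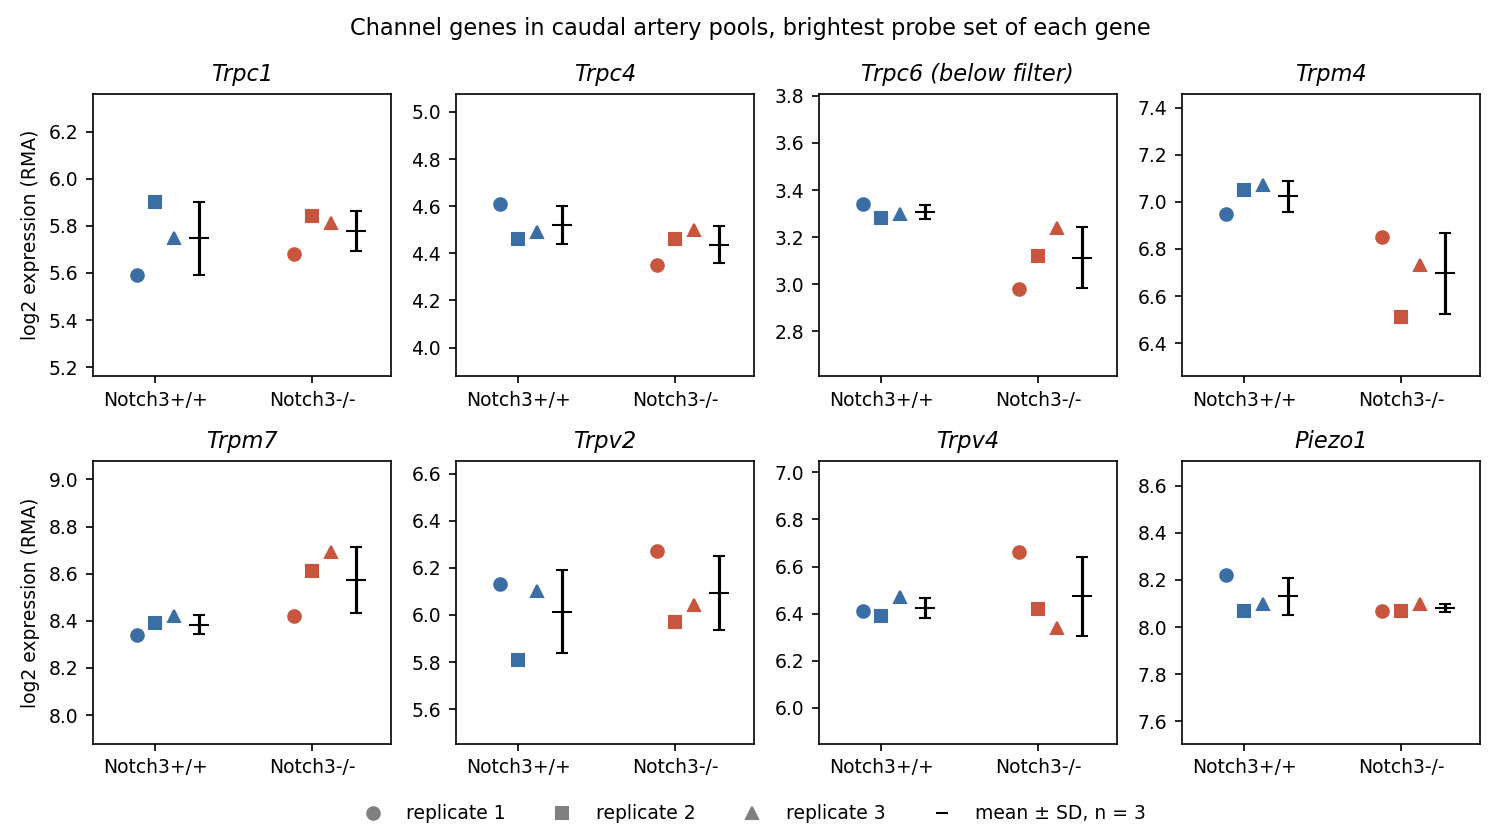
Log2 expression (RMA) of the brightest probe set of 8 channel genes in 3 Notch3+/+ pools (blue) and 3 Notch3-/- pools (red), with the mean and SD (n = 3) beside the points; every vertical axis spans the same range. The pools do not overlap for Trpm4 and for Trpc6, which lay below the level filter, and they touch for Trpm7.

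Trpm4 had the largest difference among the 7 genes tested. It encodes a channel for monovalent cations that is opened by intracellular calcium, and in cerebral arteries it carries part of the depolarisation that follows pressure. Trpm4 read 6.95, 7.05 and 7.07 in Notch3+/+ replicates 1 to 3 and 6.85, 6.51 and 6.73 in Notch3-/- replicates 1 to 3. Every Notch3-/- pool was below every Notch3+/+ pool, with the closest values 6.85 and 6.95, and replicate 2 was the lowest. Among all genes tested, the groups did not overlap for 17.3%, and for 7.88% with Notch3-/- lower, so such a separation was common on these arrays. The means were 7.02 ± 0.06 and 6.70 ± 0.17 (SD, n = 3), a difference of -0.33 (SE 0.10, 95% interval -0.57 to -0.08). The adjusted p in limma was 0.324 and the unadjusted p 0.0147, and 4.78% of all genes had a p at least as small. The interval reaches down to a level 1.48-fold lower in Notch3-/-. Without Notch3-/- replicate 2 the difference was -0.23 (adjusted p = 0.448), and over all alternatives run the adjusted p lay between 0.0523 and 0.705. The 0.0523 came with array weights, where 978 probe sets were called against 68. The next lowest limma adjusted p was 0.2065, without Notch3-/- replicate 1. Only 1 probe set represents Trpm4, so no second probe set can be set beside it.

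The genes whose values over the 6 arrays lay closest to those of Trpm4, after each gene was centred on its mean, were Hint2, Fibin and Atp9b. Likeness was the root mean square difference in log2 units, which was 0.0356 for Hint2, 0.0362 for Fibin and 0.0364 for Atp9b, against a median of 0.217 over all genes. Each was also lowest in Notch3-/- replicate 2, and none passed the test, with differences of -0.29, -0.34 and -0.32 and limma adjusted p of 0.371, 0.368 and 0.373. They were picked for likeness over these same 6 arrays, so a similar difference and a shared lowest pool follow from the choice.

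Trpm7 gave opposite signs on its probe sets. It encodes a channel joined to a protein kinase, which passes magnesium and calcium and is found in nearly all cells. Its brightest probe set read 8.34, 8.39 and 8.42 in Notch3+/+ and 8.42, 8.61 and 8.69 in Notch3-/- pools. The lowest Notch3-/- pool equalled the highest Notch3+/+ pool. The difference was 0.19 (SE 0.09, 95% interval -0.02 to 0.40), with an adjusted p of 0.492 in limma. The second probe set by level read 7.91, 8.03 and 7.97 in Notch3+/+ and 7.89, 7.74 and 7.91 in Notch3-/- pools, a difference of -0.12 (adjusted p = 0.607). The next read 6.11 to 6.26 in the Notch3+/+ pools and 5.99 to 6.32 in the others, with a difference of 0.00 (adjusted p = 0.990). The dimmest read 4.64 to 4.66 in Notch3+/+ and 4.59, 4.15 and 4.66 in Notch3-/- pools, with replicate 2 apart from the other 5 pools. Its difference was -0.19 (adjusted p = 0.629), and -0.03 (adjusted p = 0.9225) without that pool. All 4 Trpm7 probe sets were tested and 0 passed, and the mean over them differed by -0.03 (adjusted p = 0.883). These values give Trpm7 no direction.

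The TRPC genes encode cation channels opened downstream of phospholipase C, and TRPC6 in particular has been placed in pressure-induced depolarisation of cerebral arteries. Trpc1 read 5.59, 5.90 and 5.75 in Notch3+/+ and 5.68, 5.84 and 5.81 in Notch3-/- pools. The Notch3-/- values lay within the Notch3+/+ range, with a difference of 0.03 (SE 0.10, 95% interval -0.21 to 0.27, limma adjusted p = 0.929). The interval of this probe set allows at most a 1.20-fold higher or a 1.15-fold lower level. The other Trpc1 probe set lay below the filter, where Notch3+/+ pools read 3.32 to 3.63 and Notch3-/- pools 2.94 to 3.55. Its difference was -0.20, with a 95% interval of -0.57 to 0.17 in a limma fit without the filter. That interval reaches down to a 1.49-fold lower level. Trpc4 read 4.61, 4.46 and 4.49 in Notch3+/+ and 4.35, 4.46 and 4.50 in Notch3-/- pools. The groups overlapped, and the difference was -0.08 (SE 0.08, 95% interval -0.28 to 0.11, limma adjusted p = 0.718). The other 2 Trpc4 probe sets were below the filter, at 1.86 to 3.07 over all pools, with differences of -0.13 and 0.05.

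Trpc6 lay below the level filter on its only probe set and was therefore not among the 7 genes tested. It read 3.34, 3.28 and 3.30 in Notch3+/+ and 2.98, 3.12 and 3.24 in Notch3-/- pools. All 3 Notch3-/- values were lower, by a mean of 0.19 in log2 units. In a limma fit without the filter, the unadjusted p was 0.0556, the adjusted p 0.518 and the 95% interval -0.39 to 0.01. At this level RMA compresses differences, and whether the transcript was detected cannot be read from these values.

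Trpv2 and Trpv4 did not pass either. TRPV2 is a cation channel described as stretch-activated in aortic smooth muscle and is also present in macrophages, and TRPV4 is a calcium channel of endothelium and smooth muscle linked mainly to dilation. Trpv2 read 6.13, 5.81 and 6.10 in Notch3+/+ and 6.27, 5.97 and 6.04 in Notch3-/- pools. The groups overlapped, and the difference was 0.08 (SE 0.12, 95% interval -0.20 to 0.36, limma adjusted p = 0.823). Trpv4 read 6.41, 6.39 and 6.47 in Notch3+/+ and 6.66, 6.42 and 6.34 in Notch3-/- pools. Notch3-/- replicate 1 was the highest and replicate 3 the lowest of all 6, and the difference was 0.05 (SE 0.10, 95% interval -0.18 to 0.28, limma adjusted p = 0.868). The intervals allow at most a 1.29-fold higher Trpv2 and a 1.22-fold higher Trpv4 level in Notch3-/- arteries.

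Piezo1 had the narrowest interval of the 7 genes. It encodes a force-gated channel that senses flow in endothelium and is also present in smooth muscle of small arteries. It read 8.22, 8.07 and 8.10 in Notch3+/+ and 8.07, 8.07 and 8.10 in Notch3-/- pools. Apart from Notch3+/+ replicate 1, all pools lay between 8.07 and 8.10. The difference was -0.05 (SE 0.08, 95% interval -0.23 to 0.13, limma adjusted p = 0.827), which allows at most a 1.17-fold lower level in Notch3-/- arteries.

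**Figure D2:**
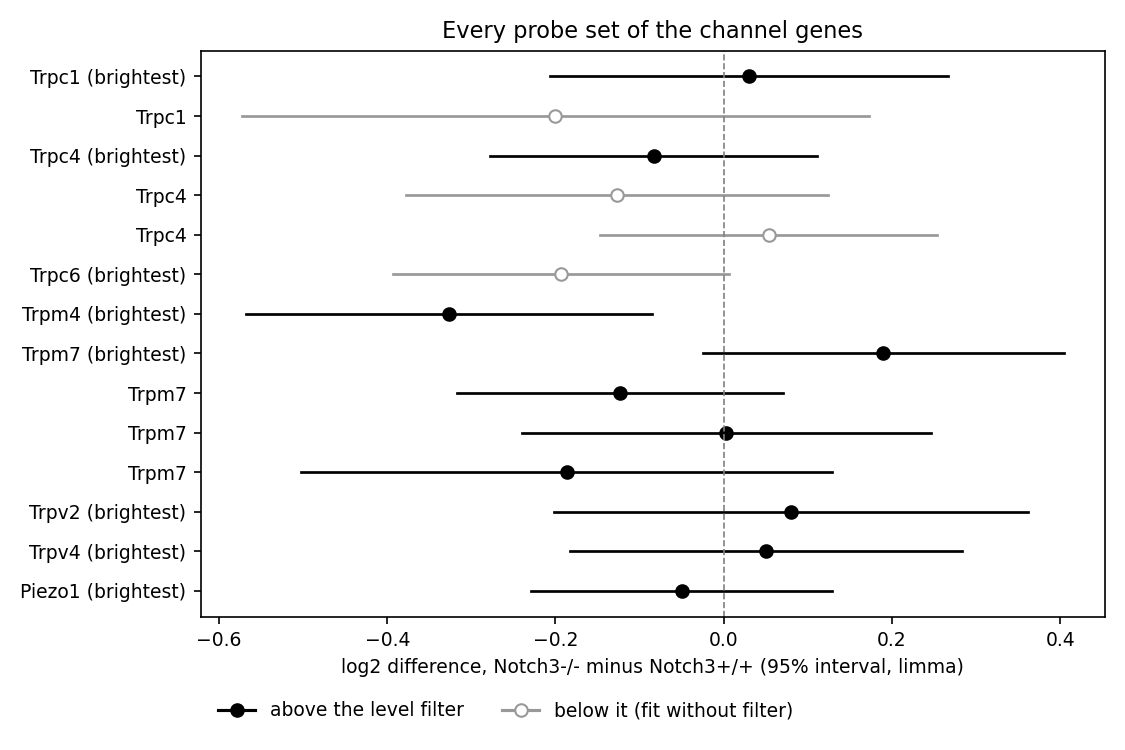
Difference in log2 expression, Notch3-/- minus Notch3+/+, of all 14 probe sets of the channel genes, with 95% intervals from limma; open symbols are the 4 probe sets below the level filter, from a fit without it. The interval of Trpm4, -0.57 to -0.08, is the only one that does not include 0, before any adjustment for the number of probe sets tested, and the 4 Trpm7 probe sets fall on both sides of 0.

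**Figure D3:**
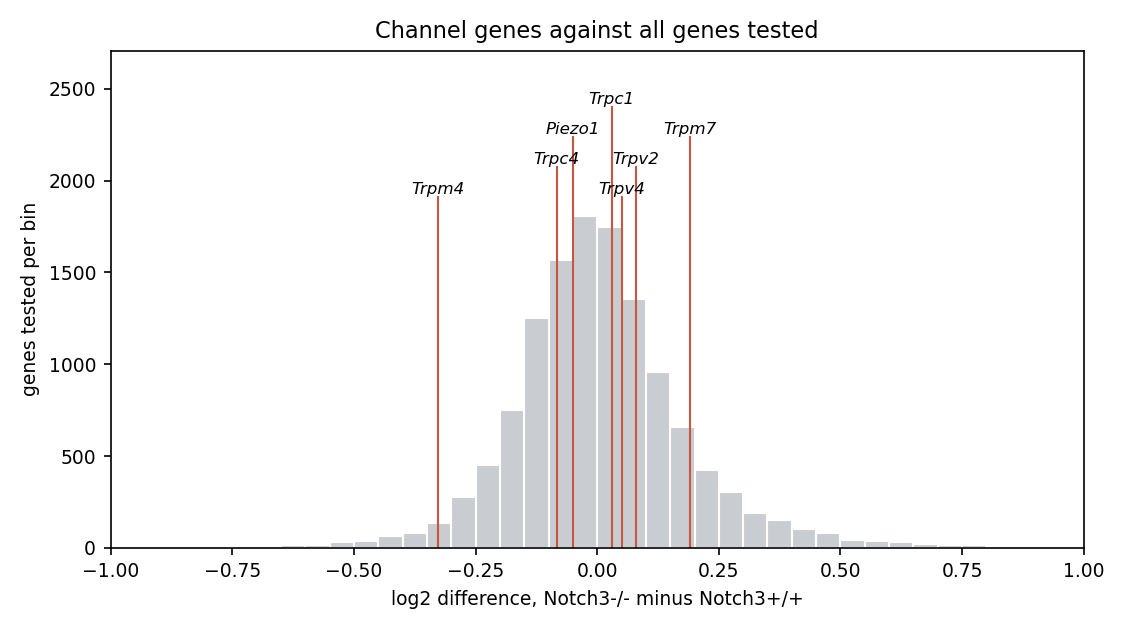
Number of genes tested per bin of the log2 difference, Notch3-/- minus Notch3+/+, with the 7 tested channel genes as lines whose heights only separate the names; genes beyond 1 in size are not shown. Trpm4, at -0.33, lies toward the lower edge, where 7.76% of all genes have a difference at least as large in either direction, and the other 6 lie between -0.08 and 0.19.

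Signals through Notch receptors reach genes by the DNA-binding protein RBPJ, and many smooth muscle genes carry a CArG box, the site of serum response factor. Short stretches that hold these motifs are shown because they place the letters in the channel genes themselves. RefSeq promoter windows (mouse build GRCm38.p6, 250 bases before to 50 after a start site) were matched for 8 of the 9 genes, in 10 windows, 3 of them for Trpv2. Trpm4 was not matched. The RBPJ core TGGGAA, searched on both strands, was in 2 of the 10 windows, and 25.6% of all 32851 windows hold it. The longer form GTGGGAA, which contains the core, was in 0 of 10, against 6.38% of all windows. The CArG box was in 1 of 10, against 1.63%. Capitals mark the motif, with 10 bases on each side, 5′ to 3′ on the strand of the gene.
Trpc4 (RBPJ core, chr3:54155912-54155937, plus strand): ttggccacctTGGGAAcgcaactttt
Trpc1 (RBPJ core on the opposite strand, chr9:95750486-95750511, minus strand): caccaagcggTTCCCAtgccctcagg
Trpc6 (CArG box, chr9:8544010-8544039, plus strand): cctttcgatcCCTTTAAAGGtggggatcgt
The Trpc4 and Trpc6 stretches lie before the start site of their window but inside the span of the RefSeq gene, and the Trpc1 stretch lies outside it. A match of letters is a description and not a bound site. Trpc1 and Trpc4, whose windows hold the core, differed by 0.03 and -0.08, as given above, and did not pass.

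Other genes of the TRP family and of the myogenic response were read from the same fit. Of 11 other TRP family genes tested with Piezo2, 0 passed in limma, against 0.322% of all genes. An unadjusted p under 0.05 was found for 0 of 11, against 11.9% of all genes, and the median difference was -0.02. Piezo2, a force-gated channel of sensory neurons, had the smallest p. It read 4.42 to 4.53 in the Notch3+/+ pools and 4.32 to 4.34 in the others, a difference of -0.15 (adjusted p = 0.502). Trpc7 (-0.13) and Trpm6 (-0.13) had adjusted p of 0.656 and 0.673. A further 10 of these genes lay below the filter.

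Among 15 other candidate stretch sensors, 1 passed in limma, which was Notch3 itself, against 0.322% of all genes. With Notch3 counted, 2 of 15 had an unadjusted p under 0.05, against 11.9% of all genes. The median difference was -0.11. The angiotensin receptor genes, whose products can be activated by stretch without ligand, differed by 0.50 for Agtr1a and -0.42 for Agtr1b, with limma adjusted p of 0.240 and 0.451. They had the next smallest p after Notch3.

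Genes of depolarisation and of calcium entry or release held the calls of the pathway outside Notch3. Of 28 tested, 2 fell and 0 rose, against 0.322% of all genes called. An unadjusted p under 0.05 was found for 11 of 28, against 11.9% of all genes. Of the 28, 7 were positive. The other 21 were counted as negative, with Atp2a2 among them, although its difference was 0. Counted in the same way, 51.3% of all genes were lower. The median over the 28 was -0.11. The list was chosen with earlier results of these data known, and its genes were measured on the same 6 arrays. These counts are therefore a description and not a test of the list. Kcna5, a voltage-gated potassium channel that opposes depolarisation, read 6.92, 6.92 and 7.15 in Notch3+/+ and 5.66, 5.91 and 5.71 in Notch3-/- pools and fell by 1.24 (SE 0.10, limma adjusted p = 0.00534). Pln, the inhibitor of the sarcoplasmic reticulum calcium pump, read 6.91 to 7.54 in the Notch3+/+ pools and 4.86 to 5.54 in the others and fell by 2.05 (SE 0.22, limma adjusted p = 0.0182). The count was 0 without Notch3+/+ replicate 2 or Notch3-/- replicate 3, and 1 (Kcna5) without Notch3+/+ replicate 3 or Notch3-/- replicate 2.

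Of 30 regulators of these channels and second messenger enzymes, 0 passed in limma, 3 had an unadjusted p under 0.05, against 11.9% of all genes, and the median was -0.03. The phospholipase C gene Plcb4 (0.33), the phosphoinositide kinase gene Pip5k1b (-0.32) and the protein kinase C gene Prkcb (0.60) had adjusted p of 0.275, 0.372 and 0.383. Of 18 genes of actin, RhoA and calcium sensitisation, 0 passed, 4 had an unadjusted p under 0.05, against the same 11.9%, and the median was -0.05. The calponin gene Cnn1 (0.51), the small heat shock protein gene Hspb1 (0.26) and the myosin light chain gene Myl6 (-0.34) had limma adjusted p of 0.138, 0.369 and 0.376.

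**Figure D4:**
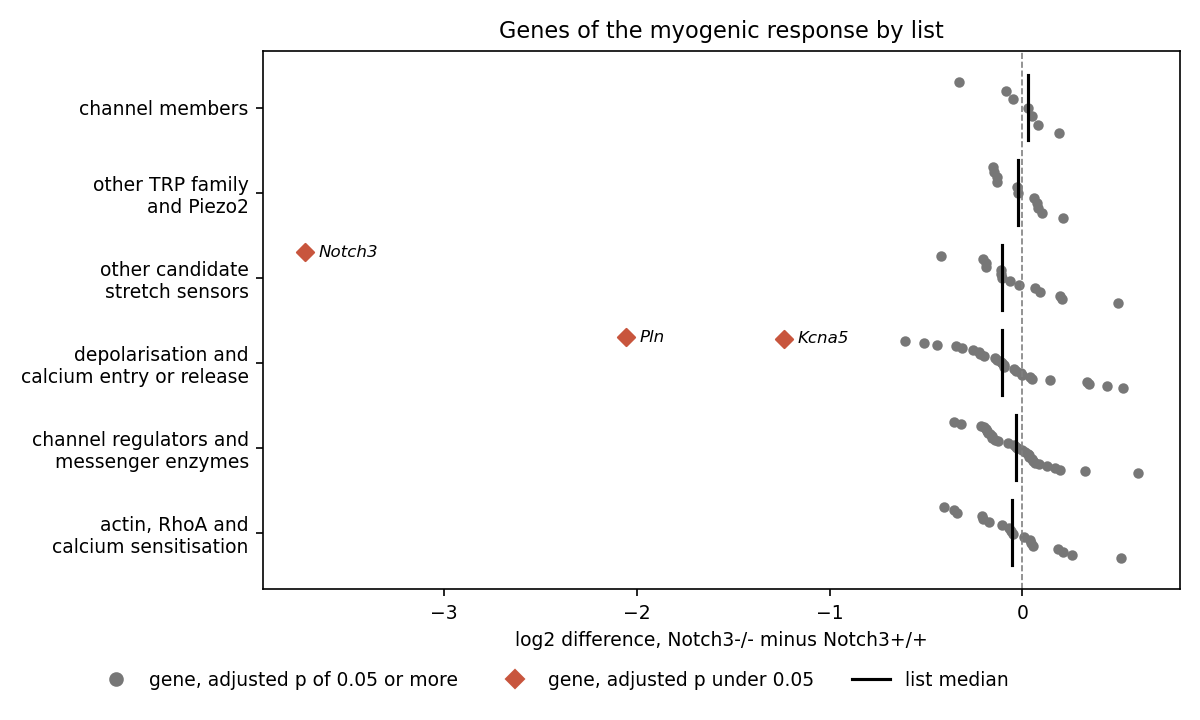
Log2 difference, Notch3-/- minus Notch3+/+, of every tested gene in the channel group and in 5 lists of other genes; diamonds passed an adjusted p of 0.05 in limma and vertical bars are list medians. The 7 channel genes lie between -0.33 and 0.19, and the diamonds are Notch3, Pln and Kcna5.

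Levels of markers of other cell types are given here for the same pools. Fewer cells of a type and less RNA per cell cannot be told apart in pooled tissue. Each list was summed within a pool (antilog of the log2 values, array units) and compared only with the same sum in other pools, and such a sum is weighted toward its brightest probe sets. Over 18 endothelial markers it was 9509 to 10440 in Notch3+/+ pools and 8872 to 9360 in Notch3-/- pools, with 11 of 18 markers lower. These ranges did not overlap. Of all genes tested, 51.3% were lower in Notch3-/- pools. Over 12 smooth muscle markers the sums were 32330 to 37850 and 36360 to 38000, with 8 of 12 higher. The count was 6 without Notch3+/+ replicate 1, and 7 or 8 with any other array left out. The sums overlapped except without Notch3+/+ replicate 3, where they were 32330 to 34290 and 36360 to 38000. Des, the desmin gene, was the only smooth muscle marker to pass and rose by 2.01 (limma adjusted p = 0.00327).

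All 16 macrophage and leukocyte markers had a higher mean in Notch3-/- pools, with summed levels of 2163 to 3621 against 3468 to 4625, as did all 8 mast cell markers, at 878 to 1860 and 1518 to 2560. Of 11 adventitial fibroblast markers 9 were higher, at 37460 to 39980 and 38410 to 41820, and Dpt, the dermatopontin gene, rose by 0.58 (limma adjusted p = 0.0499). Dpt did not pass with any 1 array left out, nor in a limma fit without the level filter (adjusted p = 0.0565). These 3 lists overlapped between genotypes with all arrays and did not overlap without Notch3-/- replicate 2, where the Notch3-/- sums began at 4105, 1994 and 41600. Without Notch3+/+ replicate 1 the macrophage and mast cell sums did not overlap, and the fibroblast sums did. With any other array left out, all 3 lists overlapped. Without Notch3+/+ replicate 3 their median differences were 0.28, 0.49 and 0.065, against 0.47, 0.715 and 0.15 with all arrays. Of 9 adipocyte markers 8 were lower, at 4836 to 5592 and 4674 to 5387. Of 8 Schwann cell markers 7 were lower, at 4494 to 5386 and 4068 to 5268. The count was 5 without Notch3+/+ replicate 1, without Notch3+/+ replicate 2 or without Notch3-/- replicate 2. It was 7 with any other array left out.

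The skeletal muscle markers turned on single pools. Of 18, 17 were lower, at 1785 to 2346 in Notch3+/+ and 1231 to 2589 in the other pools, but 9 without Notch3-/- replicate 2 and 18 without Notch3-/- replicate 3. Of 8 keratinocyte markers 3 were lower and 5 higher, with sums of 231 to 267 and 169 to 180. That lower sum came from Perp, a desmosome gene that fell by 2.12 (limma adjusted p = 0.00202). Without Perp the sums were higher in Notch3-/- pools, at 138.5 to 155.7 against 124 to 130.9. The part of these shifts in the differences of Trpm4, Trpc6 or any other channel gene was not tested.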

How the data were processed

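The deposited values are log2 expression levels per probe set, made by the authors with RMA, per the submitters' processing notes; for its version and chip definition, nothing is stated in the sources used here. Per the labels' protocols, biotinylated cRNA was made from 2.5 µg of total RNA. That they are log2 was judged from their range. Of 45101 probe sets, 64 controls were left out. Probe sets were named from the platform annotation, which gave 34945 of them 1 symbol, and symbols were updated through RefSeq. Probe sets with a mean over the 6 arrays below the 40th percentile (3.825) were left out.

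Genotypes were compared with limma 3.58.1 in R 4.3.3 (lmFit, eBayes, genotype as the only term), two-sided, with Benjamini-Hochberg adjustment over 27027 probe sets and a threshold of 0.05. Each gene was represented by its brightest probe set. The fit was tested on simulated data with independent noise for each value. These held no effect shared across an array, so they do not cover an array that stands apart. Named genes were all channel genes with every probe set, Notch3, the called genes of each pathway list or else its 3 smallest p, and the 3 genes most like the channel gene with the smallest p. Agtr1a and Agtr1b, beside Notch3, complete such a list, and the called markers Des, Dpt and Perp were named after their values were seen. The channel genes and lists were chosen with earlier results of these data known. Replicate numbers were not used as pairs in the fit reported. Same-numbered pools correlated at 0.242, 0.0465 and -0.0672 in their deviations from the group means. No correlation of differently numbered pools was set beside these, so whether the numbers pair the samples was not tested. Alternatives were the filter, variance model, normalization, weights, replicate block, probe set rule, threshold and omission of each array.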

Additional observations from a re-analysis of the deposited data

How the results depend on the processing

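No channel gene and no channel probe set passed an adjusted p of 0.05 under any alternative run, nor an adjusted p of 0.1 in the limma fit reported. With array weights the limma adjusted p was under 0.1 for Trpm4 (0.0523) and Trpm7 (0.095). The count of all called probe sets was 978 with array weights, which gave Notch3-/- replicate 2 a weight of 0.29, against 68, and 13 to 62 with 1 array left out. With array weights 2 channel genes (Trpm4 and Trpm7) had an unadjusted p under 0.05, where 21.5% of all genes did, and 1 to 2 with 1 array left out, where 6.94% to 13.7% did. The groups did not overlap for 2 channel genes after a further quantile normalization, where this held for 19.9% of all genes, and for 1 to 2 with 1 array left out, where it held for 23.4% to 31.6%. Trpm4 kept its direction throughout, at -0.40 to -0.23, as did Piezo1 and, wherever it was tested, Trpc4, which a filter at the 60th percentile or the mean over its probe sets left out. Small differences changed sign. With array weights Trpc1 read -0.0278 and Trpv4 -0.0134, and with the mean over probe sets Trpc1 read -0.085 and Trpm7 -0.0292. With 1 array left out, Trpc1 ran from -0.0483 to 0.107, Trpv2 from -0.0217 to 0.142 and Trpv4 from -0.0433 to 0.117. The omissions for the pathway and marker lists, and the keratinocyte sum without Perp, were chosen after seeing the data. The calls in the depolarisation and calcium list were 0 to 2 with 1 array left out. With the replicate number as a block, Trpm4 had an adjusted p of 0.36 in limma, 57 probe sets were called and no channel gene passed. The cause of these shifts was not tested. Dim probe sets, such as that of Trpc6, carry no measure of signal over background, which limits what can be said of them.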
